A study of Mus musculus with 3 samples.

Results

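The 8 genes described here, Klf2, Klf4, Klf6, Nos3, Piezo1, Piezo2, Trpv4 and Kcnj2, were chosen by symbol, out of 32285 genes in the series, as genes through which endothelial cells (ECs) answer or sense the friction of flowing blood. They were counted in 31092 endothelial barcodes, out of 31947 barcodes with 1000 to 5000 detected genes and under 20% mitochondrial UMIs. A UMI is a tag that marks 1 captured RNA molecule, and a barcode counted as endothelial when it held at least 2 UMIs of the junction genes Pecam1 and Cdh5 together. All mice were wild-type C57BL/6. The control library came from lungs taken 6 h after a tail vein injection of PBS, and the other libraries came from lungs taken 6 h or 30 h after injection of 200000 B16-F10 cells, a mouse melanoma line, in 100 µl of PBS. Each library pooled the lungs of several mice (2 per treatment in the labels, 3 for this experiment in the study's methods), so there was 1 library per group and no replicate error. No PBS library at 30 h was analysed here, and in the 30 h comparison with control the time after injection and the melanoma cells cannot be told apart. Cells were sorted as Pecam1-positive and Ptprc-negative after 1 h of collagenase digestion at 37 °C, and the label of the 6 h library lists melanoma cells beside ECs, which the study collected by a green tracker dye.

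The control, 6 h and 30 h libraries gave 11231, 10583 and 9278 endothelial barcodes, which were 97.6%, 96.8% and 97.5% of the barcodes within the limits. Median depth was 7782, 8033 and 8676 UMIs per endothelial barcode. Between 22 and 38 barcode sequences were shared by any pair of libraries, at most 0.399% of a library. Pecam1 had 1097, 1136 and 1237 CPM and Cdh5 1636, 1583 and 1788 CPM in these barcodes, levels that the gate itself requires and that are no check of the label. Levels are given as UMIs per 1000000 UMIs of a sum (CPM), with 95% Poisson intervals that cover counting error only. They were compared between libraries and never between genes, because 3′ counts depend on how well each transcript end is captured.

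Laminar flow along the vessel wall is a main signal for endothelial quiescence. It acts through a MEKK3-MEK5-ERK5 kinase chain and MEF2 factors to induce Klf2 and Klf4, zinc finger transcription factors that raise Nos3, the endothelial nitric oxide synthase, and the anticoagulant receptor Thbd, and restrain inflammatory genes. Klf6 is a related factor known as an early injury-response gene. Piezo1 is a channel opened by membrane tension and a main flow sensor of the endothelium, Piezo2 is its relative best known from touch neurons, Trpv4 is a calcium channel, and Kcnj2 encodes the inward rectifier potassium channel Kir2.1.

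Klf2 and Klf4 went together over the vessel classes described below more closely than either did with Klf6, so the DNA upstream of all 3 is shown first. In the RefSeq promoter table (GRCm38.p6) 6 of the 8 genes had an entry. The 200 bases from 250 to 51 bases before the RefSeq start are given 5′ to 3′ on the gene's strand, at chr8:72318812-72319011 (plus strand) for Klf2, chr4:55532526-55532725 (minus strand) for Klf4 and chr13:5861239-5861438 (plus strand) for Klf6. Capitals mark matches to the MEF2 motif and to GGGCGG, the GC box bound by Sp and Klf factors, on either strand.
Klf2: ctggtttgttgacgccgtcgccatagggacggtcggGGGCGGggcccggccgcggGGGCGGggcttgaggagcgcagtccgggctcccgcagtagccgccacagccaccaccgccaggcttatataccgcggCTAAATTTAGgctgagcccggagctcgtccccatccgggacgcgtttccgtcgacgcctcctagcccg
Klf4: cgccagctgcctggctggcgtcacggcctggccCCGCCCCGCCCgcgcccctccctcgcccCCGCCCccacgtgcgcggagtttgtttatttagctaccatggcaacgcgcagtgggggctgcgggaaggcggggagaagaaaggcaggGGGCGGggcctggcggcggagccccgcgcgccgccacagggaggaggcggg
Klf6: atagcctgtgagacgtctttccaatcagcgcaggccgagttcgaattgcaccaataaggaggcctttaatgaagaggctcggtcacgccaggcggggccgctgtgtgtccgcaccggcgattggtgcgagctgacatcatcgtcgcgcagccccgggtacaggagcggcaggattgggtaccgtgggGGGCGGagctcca
The MEF2 motif, searched by its usual consensus, had 1 match upstream of Klf2, CTAAATTTAG at 118 to 109 bases before the start, and none in the windows of the other 5 genes. It was found in 2.42% of 32851 promoter windows of the same length. GGGCGG had 2 matches upstream of Klf2, 4 upstream of Klf4 (2 of them overlapping by 1 base) and 1 upstream of Klf6, and was held by 24.6% of all windows. TGACG, the core of the cyclic AMP response element, had 1 match each upstream of Klf2 and Klf4 and none upstream of Klf6, with 12.7% of windows holding it. The serum response CArG box, in 1.16% of windows, matched none of the 6 genes. These are matches of letters and were not tested as sites.

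In the GENCODE annotation (GRCm38) Klf2 lies at chr8:72319033-72321656 on the plus strand, Klf4 at chr4:55527143-55532466 on the minus strand and Klf6 at chr13:5861482-5870394 on the plus strand. Klf2, the central flow-induced factor, had 1638 CPM in control ECs (95% interval 1630 to 1647), 1702 CPM at 6 h (1693 to 1711) and 2039 CPM at 30 h (2029 to 2049). The control and 6 h libraries lay close together and the 30 h library stood above both. The log2 ratio was 0.05 at 6 h against control, 0.32 at 30 h against control and 0.26 at 30 h against 6 h. The libraries also differed in how many barcodes lacked Klf2. After each barcode was thinned to 2000 UMIs, 18.9% of control barcodes, 17.8% at 6 h and 7.96% at 30 h held no Klf2 UMI. The 90th percentile was 8 UMIs in each library, while the median was 2, 2 and 3 UMIs.

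Klf4, the partner of Klf2 in the flow response, had 921 CPM in control, 1196 CPM at 6 h and 1149 CPM at 30 h. Both melanoma libraries were above control, with log2 ratios of 0.38 (0.36 to 0.39) at 6 h and 0.32 (0.31 to 0.33) at 30 h, and the 2 melanoma libraries differed by -0.06. A Klf4 UMI was found in 66.1%, 70.8% and 75.7% of thinned barcodes. Klf6 went the other way at the late time, with 250.2 CPM in control, 275 CPM at 6 h and 169 CPM at 30 h. The log2 ratio of Klf6 was 0.14 (0.11 to 0.16) at 6 h and -0.57 (-0.60 to -0.54) at 30 h against control, and its share of thinned barcodes with a UMI was 32.9%, 35.2% and 24.7%.

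Nos3 (chr5:24364810-24384474, plus strand), the enzyme that makes nitric oxide in ECs, had 26.0 CPM in control, 28.2 CPM at 6 h and 36.5 CPM at 30 h. The control and 6 h intervals met at their ends (both at 27.1 CPM), and the 30 h interval (35.2 to 37.8) stood clear of both. Its log2 ratio at 30 h was 0.47 (0.41 to 0.57) against control and 0.36 (0.30 to 0.45) against 6 h. Between 4.57% and 6.34% of thinned barcodes held a Nos3 UMI, in the order control, 6 h, 30 h. In the barcodes under the endothelial gate (non-endothelial barcodes), of which 152 of 275 in control, 227 of 345 at 6 h and 141 of 235 at 30 h held 1 UMI of Pecam1 or Cdh5 and may include shallow ECs, the share was 0 of 213 in control, 0.717% at 6 h and 0.976% at 30 h, at median depths of 2504 to 2770 UMIs before thinning. A count of 0 of 213 allows a share of up to 1.72% (exact binomial upper bound).

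Piezo1 (chr8:122481698-122551329, minus strand), the tension-gated channel, was nearly level, with 74.9 CPM in control, 77.7 CPM at 6 h and 80.8 CPM at 30 h, and log2 ratios of 0.05 and 0.11 against control. Piezo2 had 322 CPM in control, 245 CPM at 6 h and 349 CPM at 30 h. The 6 h library was the low one, at a log2 ratio of -0.39 (-0.42 to -0.37) against control, and the 30 h library was 0.51 (0.49 to 0.54) above it and 0.12 above control. The 8 pericyte marker genes, all detected, summed to 147, 111 and 134 CPM in the same barcodes and so were also lowest at 6 h. Their part in the Piezo2 values was not tested, and with barcodes holding 3 or more markers of another cell type left out the ratio of 30 h to 6 h was 0.50.

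Trpv4, a calcium-permeable channel, was rare, with 4.01 CPM in control, 4.21 CPM at 6 h and 5.93 CPM at 30 h. The 30 h value was above the others, at a log2 ratio of 0.47 against control. Kcnj2 had 2.85, 3.78 and 2.95 CPM, with the 6 h library highest, and the non-endothelial barcodes held more of it, 13.1, 14.3 and 10.7 CPM. After thinning, 0.453%, 0.751% and 0.535% of endothelial and 0.469%, 2.15% and 0.976% of non-endothelial barcodes held a Kcnj2 UMI, so over all endothelial barcodes the share was no higher than in the other barcodes. Both genes were under the mean of 5 CPM required for the counts below, so 6 of the 8 genes could be counted.

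**Figure D1:**
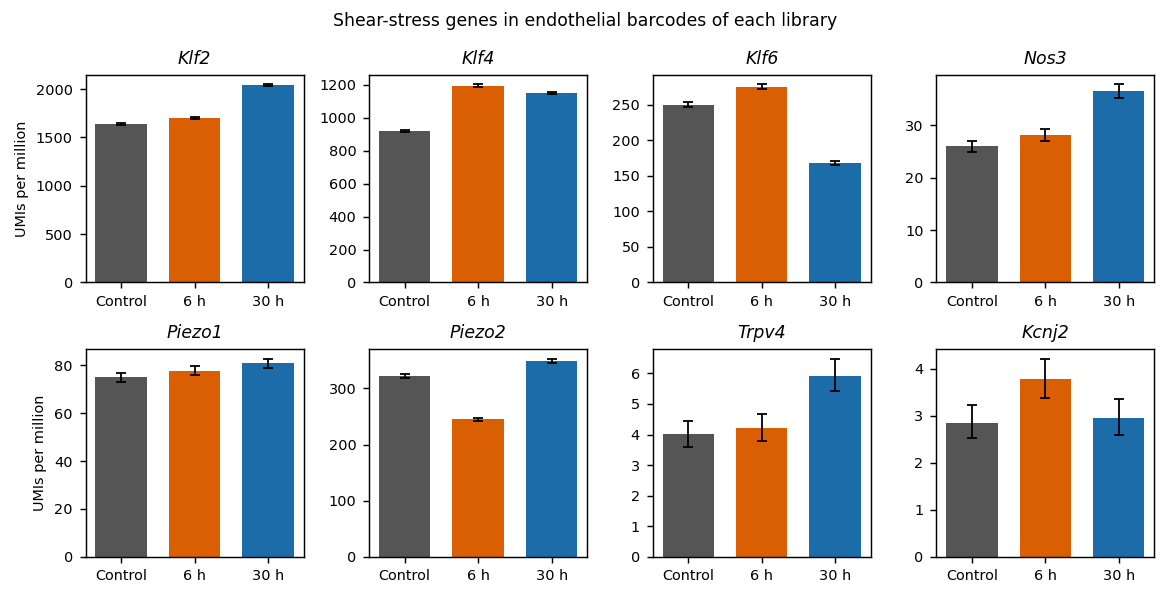
CPM of the 8 genes over all endothelial barcodes of the control, 6 h and 30 h libraries, 1 panel per gene with its own axis from 0; bars are the value of 1 library and error bars its 95% Poisson interval. Klf2, Nos3 and Trpv4 are highest at 30 h, Klf6 is lowest at 30 h (169 CPM) and Piezo2 is lowest at 6 h (245 CPM).

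With 1 library per group no test between groups was possible, and a gene was counted as past the limit when its log2 ratio reached 0.5 in size. At 6 h against control, 0 of the 6 genes were higher and 0 lower by this limit, beside 2.57% and 1.81% of 10175 genes. At 30 h against control, 0 were higher and 1 was lower (Klf6), beside 5.87% and 7.34% of all genes. At 30 h against 6 h, 1 was higher (Piezo2) and 1 lower (Klf6), beside 6.39% and 6.82%. The median log2 ratio of the 6 genes was 0.08, 0.22 and 0.16 in these comparisons and that of all genes -0.01, -0.07 and -0.07. The comparisons with control share the control library. Scaling by the median of ratios put Klf6 at -0.49 and Nos3 at 0.54 at 30 h against control, so which of the 2 was past the limit depended on the scaling. Among barcodes low in immediate early genes (a share of UMIs at or under the control median), the ratios at 30 h against control were 0.71 for Klf2, 0.71 for Klf4, 0.51 for Nos3 and -0.30 for Klf6. No share of all genes past the limit is given for these barcodes, which numbered 5616, 4705 and 5821 in control, 6 h and 30 h. Both calls at 30 h against 6 h were lost among these barcodes (Piezo2 0.28 and Klf6 -0.39), and that of Piezo2 also under 5 other alternatives at this limit.

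Free RNA held both the abundant and the rare genes. Its CPM describe composition and not the amount per droplet. Klf2 lay near its level in cells and Klf4 below it. Empty droplets (under 100 UMIs) held 1544, 1518 and 1823 CPM of Klf2 and 668, 874 and 766 CPM of Klf4 in control, 6 h and 30 h. Klf6 was also lowest at 30 h in empty droplets (194, 195 and 131 CPM). Nos3 was also highest at 30 h there (23.8, 23.0 and 30.4 CPM). Its log2 ratio of 30 h to control was 0.34 in empty droplets, beside 0.47 in cells. The droplet ratio rests on only 161 UMIs at 30 h and 83 UMIs in control. Trpv4 had 7.16, 3.77 and 4.72 CPM and Kcnj2 2.86, 5.15 and 3.58 CPM in empty droplets, each on 10 to 25 UMIs per library. Piezo2 was lower in empty droplets, with 183, 165 and 179 CPM, than in cells, with 322, 245 and 349 CPM. Shares of thinned non-endothelial barcodes with a Klf2 UMI were 50.2%, 58.4% and 63.4%, against 81.1%, 82.2% and 92.0% of endothelial ones. Both ran in the same order, but the non-endothelial intervals at 6 h and 30 h overlapped (52.4% to 64.3% and 56.4% to 70.0%). The Klf2 level of non-endothelial barcodes did not follow this order, at 511, 771 and 669 CPM in control, 6 h and 30 h.

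The endothelial barcodes were then split by marker genes into vessel classes. General capillary (gCap), aerocyte capillary (aCap, the thin cells of gas exchange), artery, vein and lymphatic (LEC) barcodes each needed 3 detected markers of their own class. gCap barcodes numbered 3475, 3769 and 2431 in control, 6 h and 30 h, aCap 2554, 2228 and 2643, artery 479, 397 and 570, vein 1203, 905 and 905, and LEC 108, 87 and 80. About 30% of each library (28.6% to 30.4%) met no gate. The gCap gate also needed fewer than 2 markers of each other class, and its barcodes were shallower. Median depth was 6015 to 6874 UMIs in gCap and 9779 to 10423 UMIs in aCap and veins. With markers counted after thinning, gCap barcodes numbered 6696, 6661 and 5127. The gates used these markers, so marker levels within the classes are no check of the class names.

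Klf2 was highest in veins in every library, at 2496, 2594 and 3018 CPM in control, 6 h and 30 h. The vein level was 0.83, 0.71 and 0.64 above gCap on the log2 scale, and gates of 2, 4 or 5 markers or on thinned barcodes left it between 0.55 and 1.04. LEC had the lowest level in each library, 967, 1200 and 1023 CPM, although at 6 h it did not differ from arteries beyond counting error. The LEC level depended on the gate, at -0.92 to -0.40 against gCap with 3 markers, -0.28 to 0.11 with 2 and -1.70 to -1.17 with 4. gCap had 1404, 1582 and 1940 CPM and arteries 1173, 1212 and 1815 CPM. At the 3-marker gate the 30 h library was above control, by 0.63 (0.58 to 0.68) in arteries, 0.47 (0.44 to 0.49) in gCap, 0.27 in veins, 0.20 in aCap and 0.08 in LEC, where the interval reached below 0 and the ratio turned to -0.33 with markers counted after thinning. The same alternative gave 0.15 in veins and 0.07 in aCap. At 6 h the same ratio was between -0.07 (aCap) and 0.31 (LEC), and with markers counted after thinning it was -0.14 in LEC and 0.42 in arteries.

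Klf4 was highest in aCap and veins, which did not differ in control, and lowest in LEC, which did not differ from arteries at 6 h. Against gCap, LEC stood at -0.67 to -0.47 with 3 markers, -0.18 to 0.06 with 2 and -1.74 to -0.95 with 4. gCap had 766 CPM in control, 1112 CPM at 6 h and 994 CPM at 30 h, and the ratio at 6 h, 0.54 (0.51 to 0.57), stayed between 0.52 and 0.56 over the other gates. aCap moved less, with 1131, 1306 and 1185 CPM and ratios of 0.21 at 6 h and 0.07 at 30 h. The ratio at 30 h kept its sign in only 1 of 4 other gates. It ran from -0.09 with markers counted after thinning to 0.13 with 2 markers. In LEC the ratio at 6 h was 0.56, and it turned to -0.21 and -0.10 with gates of 4 and 5 markers. Veins had 1124, 1471 and 1602 CPM, so that at 30 h they stood 0.51 above control. Klf6 was lower at 30 h than in control in each class, by -0.72 in aCap, -0.56 in veins, -0.54 in arteries, -0.50 in gCap and -0.31 in LEC. At 6 h its ratio was 0.36 in gCap (212 CPM in control and 272 CPM at 6 h) and between -0.07 and 0.15 in the other classes.

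Nos3 was highest in arteries and veins. Arteries had 49.1, 63.1 and 65.5 CPM and veins 57.3, 52.8 and 68.3 CPM, against 23.9, 28.1 and 35.4 CPM in gCap and 11.0, 11.6 and 17.6 CPM in aCap. Within libraries, arteries were 0.87 to 1.14 and veins 0.89 to 1.23 above gCap, and aCap was at -1.21 to -0.97. Over all gates these ranges widened to 0.68 to 2.24 in arteries, 0.66 to 1.65 in veins and -2.16 to -0.64 in aCap. Arteries and veins did not differ beyond counting error in control and at 30 h, nor did LEC from either capillary class in any library. The ratio of 30 h to control was 0.63 (0.46 to 0.90) in aCap, 0.55 (0.39 to 0.74) in gCap, 0.41 in arteries and 0.25 in veins. The artery ratio rested on the gate and was -0.28 with markers counted after thinning and 0.15 with a gate of 5 markers.

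The mechanosensitive channels split by class. Piezo2 was highest in aCap, with 539, 438 and 519 CPM, 0.89 to 1.34 above gCap (0.76 to 1.66 over all gates). Piezo1 was lowest there, with 55.6, 57.4 and 59.4 CPM in aCap against 80.7, 81.5 and 90.8 CPM in gCap, a difference of -0.60 to -0.50 (-0.999 to -0.37 over all gates). The low Piezo2 value at 6 h was found in veins (260.4 CPM in control and 168 CPM at 6 h, -0.63), gCap (231 and 172 CPM, -0.42) and aCap (-0.30), while in arteries and LEC the interval of the ratio reached 0. Artery Piezo2 was lower at 30 h than in control (-0.41, and -0.87 to -0.14 over the other gates), in a class of 397 to 570 barcodes. In the other classes this ratio was 0.27 in gCap, -0.05 in aCap, -0.10 in veins and -0.04 in LEC, where the interval spanned 0. The aCap class made up 22.7%, 21.1% and 28.5% of endothelial barcodes. With classes weighted as in control, the Piezo2 ratio of 30 h to 6 h was 0.42 in place of 0.51, and it was 0.28 among barcodes at or under the control median share of immediate early genes. Over all barcodes of a class, at the main gate, the ratio was 0.69 in gCap, 0.53 in veins, 0.24 in aCap, 0.19 in LEC and -0.32 in arteries. In LEC its interval (-0.17 to 0.55) spanned 0. Over all genes and comparisons, 36 of 120 class ratios changed sign or reached 0 under some gate, so the direction in the small LEC and artery classes is not taken as settled.

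Trpv4 was 2.05 to 2.13 higher in veins than in gCap, with 13.1, 13.6 and 20.4 CPM in veins and 2.22, 2.54 and 4.06 CPM in gCap, but did not differ between veins and LEC beyond counting error. Kcnj2 was highest in arteries, with 8.67, 10.1 and 10.8 CPM, and at 30 h arteries and LEC did not differ beyond counting error. In LEC Kcnj2 rested on 2, 0 and 3 UMIs.

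**Figure D2:**
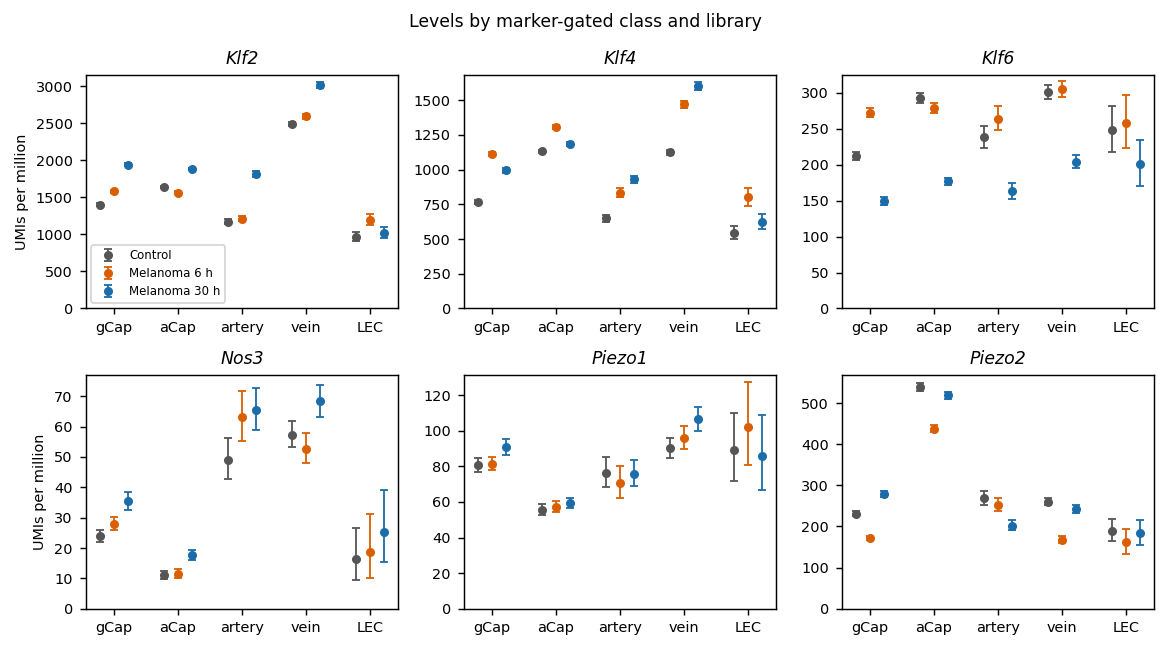
CPM of 6 of the genes in the gCap, aCap, artery, vein and LEC gates, coloured by library; points are single libraries, bars 95% Poisson intervals, and each panel starts at 0. Vein points lead for Klf2, aCap points lead for Piezo2 (438 to 539 CPM), and Klf6 at 30 h lies under the other libraries in each class.

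**Figure D3:**
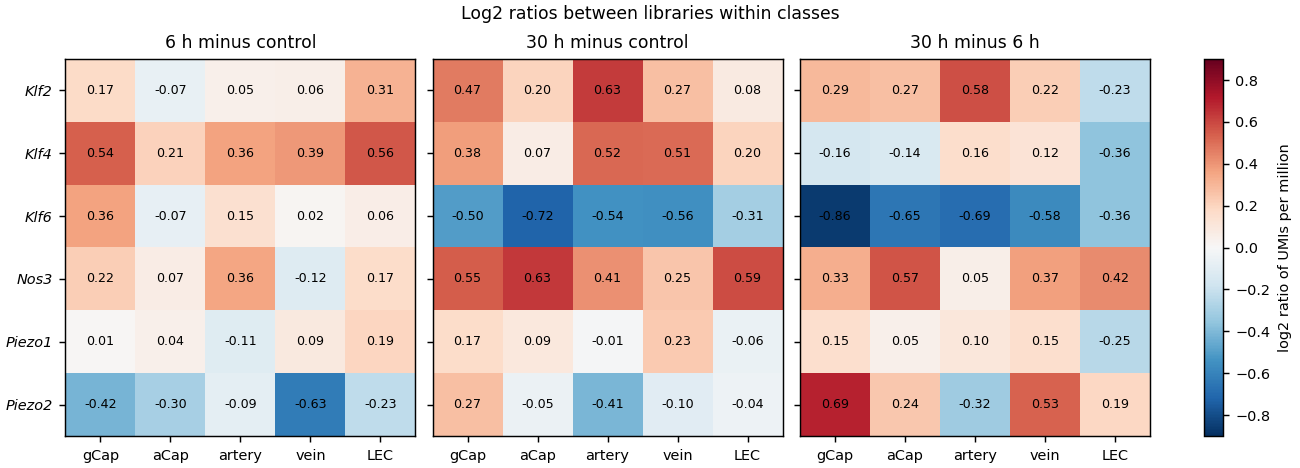
Log2 ratios of CPM between libraries for 6 genes (rows) in 5 vessel classes (columns), 1 panel per pair of libraries; red is higher and blue lower in the first-named library, with the value printed in each cell. The Klf6 row is blue in every class at 30 h, the Klf4 row red in every class at 6 h (in LEC it turns to -0.21 with a gate of 4 markers), and the Piezo2 row runs from -0.63 in veins to -0.09 in arteries at 6 h.

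Klf2 and Klf4 belong with genes that respond within minutes to many stimuli, tissue digestion included, so their levels were set beside 18 immediate early genes such as Fos and Egr1. None of the 8 genes was in that list. The listed genes made up a median of 0.739% of UMIs in control, 0.953% at 6 h and 0.481% at 30 h. Endothelial barcodes were split at the quartiles of this share in control (0.289%, 0.739% and 1.53%). The top bin, set on control, held 36.9% of barcodes at 6 h and 12.0% at 30 h. Median depth in the control bins was between 6315 UMIs in the lowest and 8696 UMIs in the third.

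Within each library Klf2 was higher with each bin. In control it had 759, 1130, 1673 and 2759 CPM from the lowest to the top bin, at 6 h 803, 1001, 1467 and 2607 CPM, and at 30 h 1306, 1807, 2374 and 3395 CPM. The top bin was 1.86, 1.70 and 1.38 above the lowest on the log2 scale. Klf4 spread further, by 2.13, 2.16 and 1.70, and Klf6 by 1.22, 1.24 and 0.97. Nos3 differed less, by 0.35, -0.09 and 0.26 between top and lowest bin, and Piezo1 differed by 0.27, 0.32 and 0.49. These are associations among barcodes of 1 library, which share depth and preparation.

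At 30 h against control Klf2 differed by 0.78 in the lowest bin, 0.68 and 0.50 in the middle bins and 0.30 in the top one, and Klf4 by 0.82, 0.66, 0.52 and 0.39, against 0.32 for both over all barcodes. The Klf4 ratio at 6 h was 0.24, 0.11, 0.08 and 0.27 within these bins and 0.38 over all barcodes. Klf2 at 6 h was between -0.19 and 0.08. At 30 h against 6 h Klf4 was at -0.06 over all barcodes and at 0.53 among those at or under the control median share. Klf6 at 30 h was -0.24, -0.34, -0.59 and -0.49. Nos3 at 30 h was between 0.44 and 0.63 in the bins, close to its total.

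Since the share of immediate early genes itself differed between libraries, the split was repeated with bins set within each library, an alternative added after the first values were seen. Klf2 at 30 h was then 0.69, 0.52, 0.33 and 0.08 above control from the lowest to the top bin, and Klf4 0.67, 0.49, 0.26 and 0.17, beside totals of 0.32 for both genes. Klf4 at 6 h against control was 0.34, 0.25, 0.37 and 0.43, close to its total of 0.38, and at 30 h against 6 h it was 0.33, 0.23, -0.11 and -0.26. At 30 h against control, the lowest bin showed the largest log2 ratio for both genes under both splits. The order depends on the scale. At the control limits Klf4 went from 361 to 640 CPM in the lowest bin and from 1585 to 2081 CPM in the top one, the larger step in CPM. Piezo2 ran the other way at 6 h, with -0.17, -0.25, -0.42 and -0.52 against control at the control limits and -0.15, -0.27, -0.50 and -0.66 with bins of its own. The part of immediate early expression in these differences was not tested.

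**Figure D4:**
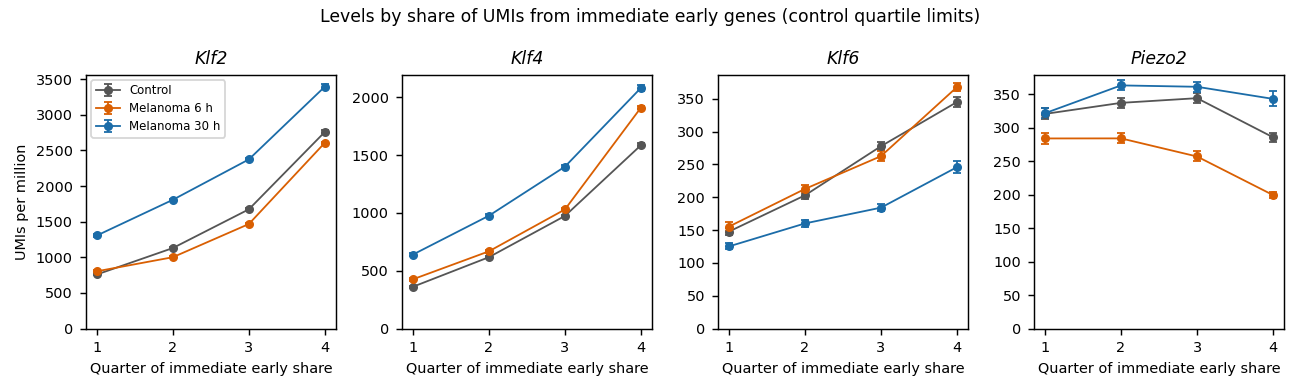
CPM of Klf2, Klf4, Klf6 and Piezo2 (y axes from 0) in endothelial barcodes split into 4 bins by the share of UMIs from 18 immediate early genes, with limits set on the control library; lines join the bins of 1 library and bars are 95% Poisson intervals. Klf2 and Klf4 climb in each library, the 30 h line lies above the others in each bin (1306 against 759 CPM of Klf2 in the lowest), and Piezo2 at 6 h bends down to 199 CPM in the top bin.

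Klf2 and Klf4 also went together within barcodes. In thinned control barcodes with 0, 1 to 2 and 3 or more Klf2 UMIs, Klf4 had 439, 642 and 1239 CPM, and the same steps were 517, 798 and 1605 CPM at 6 h and 562, 762 and 1288 CPM at 30 h. Thbd, a Klf2 target in the textbook pathway, had 699, 790 and 914 CPM in control, 549.6, 659.5 and 842 CPM at 6 h and 725, 847 and 1086 CPM at 30 h. Nos3, another such target, had no common order, with 17, 27 and 27 CPM in control, 29, 23 and 30 CPM at 6 h and 37, 30 and 37 CPM at 30 h. The junction gene Pecam1 had 1067, 1082 and 1048 CPM in these bins in control, 1110, 1156 and 1087 CPM at 6 h and 1245, 1239 and 1178 CPM at 30 h. It was lowest with 3 or more Klf2 UMIs in each library. It is a gene of the endothelial gate and so is no independent reference for the other genes. Among gCap barcodes alone Klf4 had 402, 558 and 1066 CPM in control. The Klf2 bins were not matched for the share of immediate early genes, with which Klf2 and Klf4 both climbed. Outside the gCap values they were not matched for class either.

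Over 15 sums (5 classes in 3 libraries), Klf2 and Klf4 had a Pearson correlation of 0.89 on the log2 scale, given as a description because sums of 1 library share depth and preparation. The genes most like Klf2 among 10462 were Rab27b (0.93), Klk8 (0.93) and Smim10l1 (0.93), and those most like Klf4 were Ripply3 (0.91), Csrnp1 (0.91) and Rab27b (0.91). Klf6 was most like Dnajb9 (0.93), Pcbp2 (0.90) and Ifrd1 (0.87), and had -0.04 with Klf2. Nos3 was most like Slc12a7 (0.98), Hip1r (0.95) and Heg1 (0.94), while its correlation with Klf2 was 0.43. Piezo1 was most like Rai14 (0.95), Rpl5 (0.94) and Rps3 (0.93), and had -0.81 with Piezo2.

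The wider pathway was read from gene lists, whose counts past the limit stand beside shares of all genes of 2.57% higher and 1.81% lower at 6 h, 5.87% and 7.34% at 30 h, and 6.39% and 6.82% at 30 h against 6 h. Of 20 genes that laminar flow is known to raise, 18 were abundant enough to count. Their median log2 ratio was -0.04 at 6 h and -0.09 at 30 h against control, near that of all genes. Past the limit at 30 h, S1pr1, the sphingosine-1-phosphate receptor that guards barrier function, was higher (584 CPM in control, 641 at 6 h, 914 at 30 h, log2 0.65 against control). Nqo1 (21.4, 21.0 and 2.50 CPM) and Hmox1 (17.4, 19.3 and 6.86 CPM), antioxidant enzymes of the Nrf2 response, were lower, by -2.67 and -1.23. Cyp1a1, a target of the aryl hydrocarbon receptor, was the gene past the limit at 6 h (29.0 and 18.3 CPM, -0.64), and at 30 h against 6 h Smad6 (-0.63) and Eng (-0.55), both of the BMP pathway, were lower beside Nqo1 and Hmox1, and S1pr1 (0.51) and Cyp1a1 (0.50) were higher.

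Genes that laminar flow lowers had a median of 0.29 at 6 h and -0.48 at 30 h over the 10 of 16 that could be counted, with 2 higher and 1 lower at 6 h and 0 higher and 5 lower at 30 h. At 6 h Ccn1, a matricellular protein, had 111 CPM against 64.7 in control (0.77), while Angpt2, which destabilizes vessels, was lower (-0.54). At 30 h Bmp4 (-1.22), Ccn1 (-0.87), the leukocyte adhesion molecule Icam1 (-0.87), the vasoconstrictor Edn1 (-0.63) and Angpt2 (-0.53) were below control. Icam1 had 259.6 CPM in control, 360.4 at 6 h and 141 at 30 h.

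Of the kinase chain and its partners (16 genes, all counted), none was past the limit at 6 h. At 30 h 3 were lower and 0 higher, namely Map3k3, which encodes MEKK3 (182 CPM in control, 113 at 30 h, -0.68), Map2k5, which encodes MEK5 (-0.54), and Krit1, a scaffold that holds MEKK3 signalling down (-0.54). The list's median was -0.06 and -0.12. Among 19 counted mechanosensing genes, 3 were higher at 30 h and 2 lower, with a median of 0.13. Plxnd1, a semaphorin receptor and flow sensor, had 23.9, 39.4 and 72.1 CPM, a log2 ratio of 0.70 at 6 h and 1.55 at 30 h. Kdr, the main VEGF receptor, had 450.3, 461 and 724 CPM (0.68 at 30 h), and the gap junction gene Gja1 was at 0.69. The integrin Itgav (-0.68) and the channel kinase Trpm7 (-0.67) were the lower ones.

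Partners of the nitric oxide synthase had medians of 0.13 at 6 h and 0.07 at 30 h over 21 counted genes. At 6 h the chaperones Hsp90aa1 (199 to 434 CPM, 1.12) and Hsp90ab1 (1056 to 2163 CPM, 1.03) and Ddah1, which removes an inhibitor of the enzyme, were higher, and Prkg1, a kinase downstream of nitric oxide, was lower (-0.74). Ddah1 had 93.9, 143 and 168 CPM and was 0.83 above control at 30 h, when the calmodulin gene Calm3 was also higher (0.53). At 30 h against 6 h Prkg1 (0.56) and the trafficking factor Nostrin (0.52) were higher, and Hsp90aa1 (-1.13) and Hsp90ab1 (-0.76) lower.

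Of 14 other Klf genes listed, 9 could be counted, with a median of -0.16 at 6 h and 0.28 at 30 h against control. Klf9, a glucocorticoid-responsive factor, was lower at 6 h (521 CPM in control, 320.2 at 6 h, 396 at 30 h, -0.70), and Klf10, a TGF-beta-induced factor, higher at 30 h (56.0, 59.5 and 95.7 CPM, 0.76). Klf12 (0.53) and Klf13 (0.57) were past the limit only at 30 h against 6 h. None of the 14 other Kir channel genes reached a mean of 5 CPM.

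Immediate early and heat shock genes, which warm digestion is known to raise, had the largest list medians at 6 h. Of 17 counted immediate early genes 9 were past the limit at 6 h and none was lower, with a median of 0.58, and at 30 h 1 was higher and 5 lower, with a median of -0.43. Atf3 had 180 CPM in control, 550.4 at 6 h and 128 at 30 h. Of 12 heat shock genes 11 were higher at 6 h, with a median of 0.98, led by Hspa1b (17.2, 111 and 10.4 CPM). Klf4 was 0.38 above control at 6 h, when both lists were higher, and 0.32 above it at 30 h, when the immediate early median was -0.43 and the heat shock median 0.27. Klf2 was also 0.32 above control at 30 h, and Klf6 was at -0.57. The part of these lists in those values was not tested. Hsp90aa1 and Hsp90ab1 stood in both the heat shock and the synthase list.

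**Figure D5:**
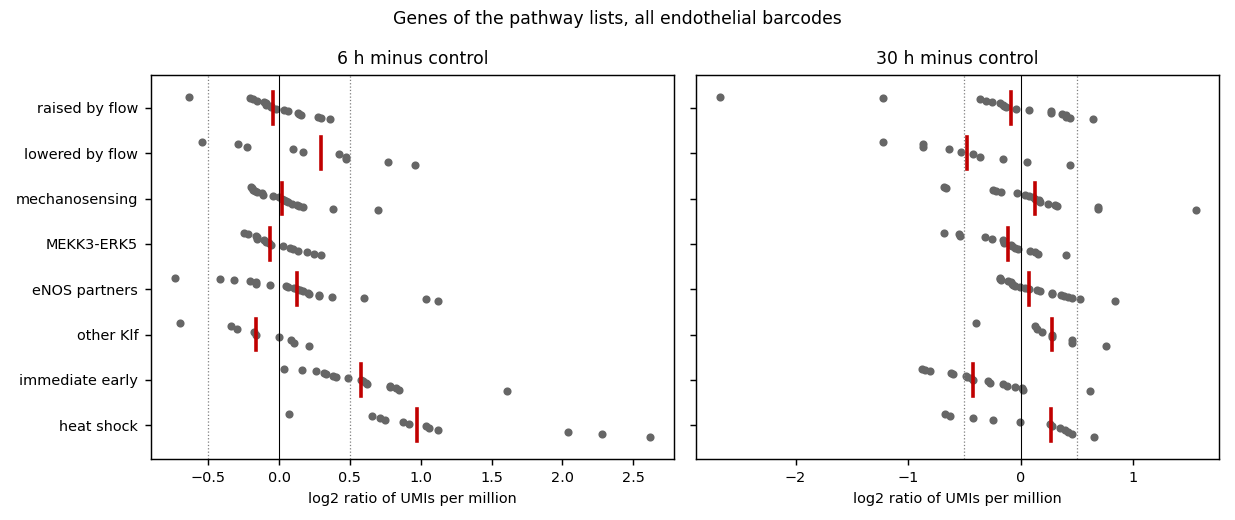
Log2 ratios of CPM at 6 h (left) and 30 h (right) against control for the counted genes of 8 lists; each grey point is 1 gene, red bars are list medians and dotted lines mark 0.5 in both directions. At 6 h the heat shock and immediate early lists lie furthest right (medians 0.98 and 0.58), and at 30 h the list lowered by flow lies furthest left (-0.48).

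Markers of other cells in the endothelial barcodes changed between libraries. Summed over lists of 5 to 8 genes, red cell genes had 3249, 2119 and 829 CPM, epithelial genes 795, 589 and 376 CPM, myeloid genes 93.5, 145 and 65.6 CPM, and melanoma genes 20.6, 35.8 and 15.7 CPM in control, 6 h and 30 h. Platelet genes had 174 to 213 CPM, fibroblast genes 49.9 to 88.0 CPM, smooth muscle genes 43.0 to 51.2 CPM and lymphoid genes 5.07 to 14.2 CPM. With barcodes holding 3 or more markers of such a list left out (red cell genes aside, since globin RNA was free in most droplets), the log2 ratio of 30 h to control was 0.32 for Klf2, 0.45 for Nos3 and -0.56 for Klf6.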

How the data were processed

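Lung ECs of 3 libraries were profiled by 10x Genomics 3′ single-cell RNA sequencing. The authors deposited unfiltered UMI counts per gene and barcode, made with Cell Ranger 7.2.0 per the file headers (an earlier release is given in the paper) and genome build mm10. Whether intronic reads were counted is not given in the sources used here. Libraries held 140601123, 132566934 and 124085451 UMIs (control, 6 h, 30 h).

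Barcodes were kept by the limits of the study's methods (1000 to 5000 genes, under 20% mitochondrial UMIs) and the endothelial gate. UMIs were summed per library or class and scaled to CPM. Log2 ratios used CPM + 1 and exact conditional binomial intervals, sums exact Poisson and shares Clopper-Pearson intervals, all 95% (scipy 1.17.1). Ratio intervals were computed without the added 1 CPM, so the ratio of a rare gene can lie outside its interval. All these intervals cover counting error only. With 1 library per group no test was run and no p-value computed. Doublets were kept, and their removal (Scrublet, scanpy 1.11.5) was an alternative. Classes needed 3 detected markers, more than of any other gated class, and gCap also fewer than 2 of each other class. Fold calls, ratios and intervals were run on simulated Poisson counts, the model that the intervals assume. The simulation held no spread between cells or libraries and no class gates, so it checks the arithmetic only.

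Named genes were the 8 members, up to 4 genes per list, direction and comparison past a log2 ratio of 0.5 with a mean of at least 5 CPM, the 3 genes most correlated with each of Klf2, Klf4, Klf6, Nos3 and Piezo1 and, in the bins of Klf2 UMIs, Thbd and Pecam1. A listed gene that the rule names is not reported here. Members, lists and markers were chosen with earlier results of these data known. Promoter sequence and motif searches used RefSeq entries for GRCm38.p6.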

Additional observations from a re-analysis of the deposited data

Results flagged for a closer look

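Summed over all endothelial barcodes, Klf6 and Piezo2 lay on opposite sides of control at 6 h and 30 h. For Klf6 the log2 ratio over all endothelial barcodes was 0.14 (0.1359) at 6 h and -0.57 (-0.5665) at 30 h. For Piezo2 it was -0.39 (-0.3935) at 6 h and 0.12 (0.1155) at 30 h. Each of these counting intervals excluded 0, but with 1 library per group the difference between the times was not tested. Among the classes, Piezo2 at 30 h lay above control only in gCap (0.27). It was at -0.05 in aCap, -0.10 in veins, -0.41 in arteries and -0.04 in LEC. Klf6 at 6 h was 0.36 in gCap, 0.15 in arteries, 0.06 in LEC, 0.02 in veins and -0.07 in aCap.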

How the results depend on the processing

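Over all endothelial barcodes, 14 alternatives were tried, and the 8 genes gave 78 moved and 270 unmoved values and counts. With barcodes low in immediate early genes, the ratios at 30 h against control were 0.71 for Klf2, 0.71 for Klf4, 0.51 for Nos3 and -0.30 for Klf6. At 30 h against 6 h they were 0.78 for Klf2 and 0.53 for Klf4. Median-of-ratios scaling put Nos3 past the limit and Klf6 under it at 30 h against control, and weighting by control classes put Nos3 at 0.51. Shares of all genes past the limit are given above for the main setting and the limit of 0.5 only, so none stands beside these alternatives. Piezo2 at 30 h against 6 h was under the limit (0 higher) with a minimum of 300 genes and the upper limit dropped, the mean of CPM per barcode, thinning to 2000 UMIs, control class weights and a pseudocount of 10 CPM, and its ratio was 0.28 in barcodes low in immediate early genes. A fold limit of 1.0 left 0 genes in each comparison. For lists, classes and bins of immediate early share, 163 values moved, 507 did not, and 2 past the limit, of genes with at least 5 CPM in both libraries, reversed: Klf4 in LEC at 6 h, 0.56, became -0.21 with 4 markers and -0.10 with 5, a gate chosen after seeing the data. Whatever their size, 36 of 120 class ratios changed sign or reached 0 under some gate, such as Klf4 in LEC at 30 h (0.20, and -0.47 with markers counted after thinning) and Kcnj2 in LEC at 30 h (0.65, and -1.41 to -0.09 over the other gates). So did 9 of 96 bin ratios with bins set within libraries and 5 of 24 over all endothelial barcodes, among them Klf2 at 6 h (0.05, and -0.06 in barcodes low in immediate early genes). The cause was not tested.

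No paired analysis was possible because each group had 1 library, so leaving 1 out left no comparison. Among all endothelial barcodes in control, 317 held exactly 3 artery markers, 74 exactly 3 LEC markers and 769 exactly 3 aCap markers, whether or not they met that gate. A gate of 4 markers kept 241 of 479 artery, 72 of 108 LEC and 1936 of 2554 aCap barcodes. Depth limits Trpv4 (364 to 483 UMIs) and Kcnj2 (240 to 330 UMIs).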
